A study of Zea mays with 6 samples.

Results

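The genes of cytokinin metabolism and of the phosphorelay that cytokinins act through were examined in root tips of maize (Zea mays). Members were all genes whose deposited name or product description mentions cytokinin, zeatin, isopentenyl transferase, histidine-containing phosphotransfer or a phosphorelay response regulator, and 102 of the 45953 genes in the table met this rule. By role, 24 act in synthesis, 35 in breakdown or conjugation, 6 in perception and 36 as response regulators, and 1 other gene is named for its induction by cytokinin. Poly(A) RNA was sequenced from 3 libraries of plants under negative pressure irrigation (NPI), a method in which the soil pulls water from a reservoir kept at subatmospheric pressure, and from 3 libraries of plants under DI. That abbreviation stands for deficit irrigation in one label and for drip irrigation in another, and the labels name no inbred line, plant age or hour of collection. They also do not say whether libraries came from separate plants, so p-values measure only library-to-library spread, part of which may be technical.

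Cytokinins are adenine derivatives with an isoprenoid side chain. Isopentenyl transferases attach that chain, a cytochrome P450 hydroxylates it to give the trans-zeatin type, and enzymes of the LONELY GUY (LOG) family release the active base from its nucleotide. Cytokinin oxidases cleave the side chain, and glucosyltransferases store or inactivate the hormone as sugar conjugates. Receptor histidine kinases start a phosphorelay through histidine-containing phosphotransfer proteins to response regulators, of which type B are DNA-binding activators and type A are induced by cytokinin and dampen the response. In the Arabidopsis root, cytokinin promotes the passage of cells from division to elongation and so limits the size of the meristem.

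Total estimated counts ran from 57792439 to 71957443 per library. Of the marker lists for the tissue, the 4 root cap genes were detected, with summed levels of 28.0 to 141 FPKM in NPI and 110 to 231 FPKM in DI. The 56 root patterning genes as a whole overlapped, at 93.9 to 173 FPKM in NPI and 91.2 to 125 FPKM in DI. Genes described as SHORT-ROOT, a patterning factor of the root, summed to 9.08 to 12.9 FPKM in NPI and 2.71 to 6.25 FPKM in DI, while the 6 described as SCARECROW, another such factor, overlapped at 4.35 to 8.57 and 5.32 to 7.96 FPKM. Dividing cells were marked by 17 histone H4 genes at 1360 to 2340 FPKM in NPI and 2610 to 3410 FPKM in DI, and by 7 B-type cyclins at 45.1 to 83.9 and 59.4 to 85.5 FPKM. Of the green tissue markers, the 2 genes of the Rubisco small subunit, which a root tip should lack, summed to 20.8 to 44.0 FPKM in NPI and 3.74 to 10.3 FPKM in DI. The 51 green tissue genes as a whole, 7 of them at 0, summed to 141 to 166 FPKM in NPI and 108 to 186 FPKM in DI. The 18 root hair genes overlapped, at 96.7 to 147 FPKM in NPI and 133 to 152 FPKM in DI. Genes of xylem and lignified wall summed to 796, 375 and 983 FPKM in the NPI libraries and 428, 446 and 546 FPKM in the DI libraries. Of that list, 33 of the 40 genes averaging at least 1 FPKM had a positive log2 difference, beside 54.0% of all genes at that level. No gene of the table matched PLETHORA or WUSCHEL-related homeobox 5 by name. The part of these differences in the results on cytokinin genes was not tested, and in whole root tips fewer cells of a type and less RNA per cell cannot be told apart. Library NPI-2 stood apart from its group: across genes, its log2(FPKM + 1) correlated with those of NPI-1 and NPI-3 at 0.838 and 0.814 and with the DI libraries at 0.854 to 0.882. NPI-3 also reached 0.878 with DI-3, and NPI-1 and NPI-3 correlated at 0.901. Results are therefore also given without NPI-2. That library was chosen by its own values, so leaving it out favours larger differences and smaller p. Fits without it rest on fewer NPI libraries and are given as description, not as separate support.

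About as large a share of the members as of all genes was expressed well enough to test. FPKM, the authors' level per transcript length and library size, averaged at least 1 over the 6 libraries in 49 of the 102 members, or 48.0%, beside 47.7% of all genes in the table, and these were tested. Of the other 53, 17 were listed at 0 in every library, as were 12925 of the 45953 genes of the table, and 10 reached 1 FPKM in some library. The highest single value among them was 3.45 FPKM, in NPI-2, for an N-glucosyltransferase gene (Zm00001d019250). By role, 7 of 24 synthesis genes, 15 of 35 in breakdown or conjugation, 3 of 6 in perception and 23 of 36 response regulators were tested, as was the 1 other gene. Of the 49 tested members, 6 had a mean below 1 FPKM in 1 group and so passed through the level of the other.

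No member passed in edgeR's quasi-likelihood test of NPI against DI. Of the 21902 tested genes, 0.0137% had an adjusted p under 0.05, 0.00913% higher and 0.00457% lower in NPI. The smallest adjusted p among members was 0.116 (edgeR). At an unadjusted p under 0.05, 5 members were higher and 2 lower, together 14.3% of those tested, beside 20.8% of all tested genes (12.3% higher and 8.52% lower). FPKM values of the groups did not overlap in 14 members, 9 higher and 5 lower in NPI. That is 28.6% of the members tested, beside 26.7% of all tested genes (13.0% higher and 13.7% lower). Both shares are near or below the background. The median log2 difference of the members was 0.05, against 0.07 over all tested genes, and 26 members were positive and 23 negative where 54.0% of all tested genes were positive.

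Other fits called a few members against a background that was also higher. DESeq2 called 3 members higher and 1 lower, and 11.4% of all tested genes (6.84% higher and 4.53% lower). Without NPI-2, edgeR called 2 members higher and 1 lower, and 11.8% of all tested genes (6.65% higher and 5.19% lower). In limma on log2(FPKM + 1) no member was called, and 0.63% of all tested genes were (0.452% higher and 0.178% lower).

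**Figure D1:**
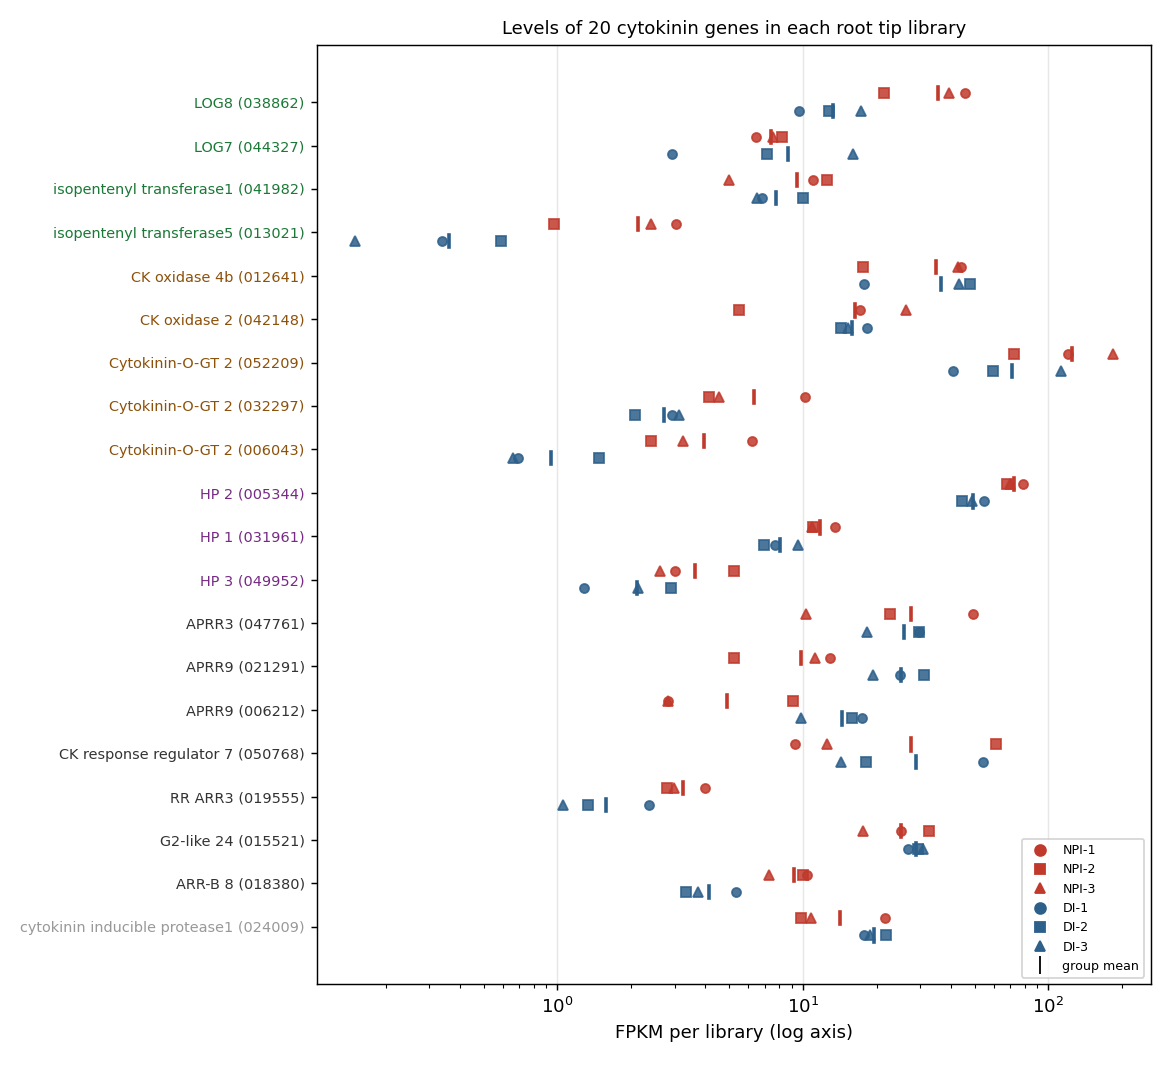
Each point is the FPKM of 1 of the 20 described members in 1 library, on a log axis, with NPI in red, DI in blue, a marker shape for each replicate number and a short bar at each group mean, label colours for the role (green synthesis, brown breakdown, purple perception, black response regulators, grey other) and the end of the gene identifier in brackets. The NPI and DI points of isopentenyl transferase5, of LOG8 and of ARR-B-transcription factor 8 lie apart, while those of cytokinin response regulator7 spread over most of their range in both groups.

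Synthesis genes summed to a higher level in NPI, mostly through a single LOG gene. The 24 genes together reached 71.3, 58.0 and 73.0 FPKM in NPI-1, NPI-2 and NPI-3 and 30.7, 40.4 and 53.7 FPKM in DI-1, DI-2 and DI-3. Each NPI library lay above each DI library (exact two-sided permutation p = 0.1, the smallest that 3 against 3 allows). Summed by class, the groups overlapped in LOG genes (39.9 to 61.6 FPKM in NPI and 21.6 to 41.9 FPKM in DI). They also overlapped in isopentenyl transferases (9.93 to 17.4 and 8.95 to 13.5 FPKM). The LOG gene Zm00001d038862 made up 44.7% of the sum of all 24. Its mean was 35.5 FPKM in NPI and 13.2 FPKM in DI, beside 67.5 and 41.6 FPKM for that sum.

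That gene is described as LOG8, an activating enzyme that removes ribose phosphate from cytokinin nucleotides, and lies on chromosome 6 (166027177 to 166029976, plus strand). It had 45.7, 21.4 and 39.4 FPKM in NPI-1, NPI-2 and NPI-3 and 9.68, 12.8 and 17.2 FPKM in DI-1, DI-2 and DI-3. The groups did not overlap, with NPI-2 the lowest of its group. The log2 difference was 1.52 (SE 0.403, edgeR adjusted p = 0.123), and it was 1.82 without NPI-2 (edgeR adjusted p = 0.0281). DESeq2 gave an adjusted p of 0.0107.

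The other LOG genes did not share this pattern. A second gene described as LOG8, Zm00001d043692, had a mean of 4.01 ± 2.49 FPKM in NPI and 4.48 ± 1.33 FPKM in DI (SD, n = 3 each), with a log2 difference of -0.13. Zm00001d044327, described as LOG7, had 6.46, 8.25 and 7.56 FPKM in the NPI libraries and 2.93, 7.16 and 16.0 FPKM in DI-1, DI-2 and DI-3. Its DI values enclosed its NPI values, and the log2 difference was -0.17 (SE 0.563, edgeR adjusted p = 0.887). Zm00001d014016, described as LOG3 and named here after its values were seen, had 8.01 FPKM in NPI-3 beside 0.67 and 3.05 FPKM in NPI-1 and NPI-2, and 0.95 to 1.69 FPKM in DI (log2 difference 1.62, edgeR adjusted p = 0.318). The remaining 6 LOG genes of 10 were not tested.

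Isopentenyl transferases, which catalyse the first committed step, were mostly below the level needed for the test. Of 11 genes, 2 were at 0 throughout and 3 were tested. Isopentenyl transferase5 (Zm00001d013021, chromosome 5, 3407648 to 3408661, minus strand) carries the deposited orthology term of the adenylate type, which makes cytokinin directly. It had 3.04, 0.97 and 2.40 FPKM in the NPI libraries and 0.34, 0.59 and 0.15 FPKM in DI-1, DI-2 and DI-3, from 211, 73 and 176 counts against 22, 42 and 12. All NPI values were above all DI values, at a low level in both groups. Its log2 difference of 2.68 had the greatest size of the 49 tested members (SE 0.765, edgeR adjusted p = 0.136). The DI mean of 0.36 FPKM was below 1, so the gene entered the test only through its NPI level, which favours a large positive difference. Leaving out NPI-2 gave 3.07 (edgeR adjusted p = 0.0412). DESeq2 gave an adjusted p of 0.0163.

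The most abundant gene of the family, isopentenyl transferase1 (Zm00001d041982), carries the orthology term of the tRNA-modifying type. It had 11.0, 12.5 and 5.01 FPKM in NPI and 6.79, 9.96 and 6.50 FPKM in DI, so the groups overlapped. The log2 difference was 0.33 (SE 0.351, edgeR adjusted p = 0.626). The third tested gene, isopentenyl transferase10 (Zm00001d036339), differed by -0.36 on the log2 scale (edgeR adjusted p = 0.811), and by -1.38 without NPI-2 (edgeR adjusted p = 0.138). The 3 cytokinin hydroxylase genes summed to at most 1.46 FPKM in an NPI library and 2.09 FPKM in a DI library, and none was tested.

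Cytokinin oxidases, the enzymes of irreversible breakdown, gave no call and no gene whose groups lay apart. Of 16 genes, 7 were at 0 in all libraries and 7 were tested, with log2 differences from -0.28 to 0.77, a smallest edgeR adjusted p of 0.487 and none at an unadjusted p under 0.05. Summed levels were 81.5, 32.5 and 88.0 FPKM in NPI-1, NPI-2 and NPI-3 and 50.5, 78.5 and 73.8 FPKM in DI-1, DI-2 and DI-3. NPI-2 was the lowest of the 6 libraries and DI-1 the next, and the group means were 67.3 ± 30.3 and 67.6 ± 15.0 FPKM (SD, n = 3 each, exact permutation p = 1).

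Cytokinin oxidase4b (Zm00001d012641, chromosome 8, 177673222 to 177677285) held 52.8% of that sum. It had 43.9, 17.6 and 43.0 FPKM in the NPI libraries and 17.7, 48.0 and 43.4 FPKM in the DI libraries. Each group thus held 1 low library, and the log2 difference was 0.05 (SE 0.514, edgeR adjusted p = 0.964). Cytokinin oxidase 2 (Zm00001d042148) had 17.1, 5.50 and 26.3 FPKM in NPI and 18.2, 14.2 and 15.3 FPKM in DI. Its NPI values lay on both sides of the DI values, with NPI-2 lowest, and the log2 difference was 0.17 (SE 0.565, edgeR adjusted p = 0.892). Cytokinin oxidase 4 (Zm00001d043293), named after its values were seen, likewise had its lowest level in NPI-2, at 3.72 FPKM beside 7.36 to 12.5 FPKM in the other 5 libraries. Cytokinin oxidase1 (Zm00001d039520), named on the same ground, was listed at 0 in NPI-1 and had the highest of its values, 3.96 FPKM, in NPI-3.

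Among the 19 glucosyltransferase genes, 8 were tested, 5 with positive and 3 with negative differences. Zm00001d052209, described as cytokinin-O-glucosyltransferase 2, was the most abundant of all 102 members. It had 120, 72.2 and 183 FPKM in NPI-1, NPI-2 and NPI-3 and 41.0, 59.4 and 112 FPKM in DI-1, DI-2 and DI-3. The groups overlapped through NPI-2 and DI-3, and the log2 difference was 0.93 (SE 0.53, edgeR adjusted p = 0.356). This gene alone held 51.4% of the summed level of breakdown and conjugation genes.

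A pair of other genes with the same description lay apart between the groups. Zm00001d006043 had 6.21, 2.41 and 3.26 FPKM in NPI and 0.69, 1.48 and 0.66 FPKM in DI (log2 difference 2.12, SE 0.664, edgeR adjusted p = 0.154). Its DI mean of 0.943 FPKM was below 1, so it too passed the filter through its NPI level. Zm00001d032297 had 10.2, 4.15 and 4.55 FPKM in NPI and 2.94, 2.07 and 3.14 FPKM in DI (log2 difference 1.27, SE 0.574, edgeR adjusted p = 0.259). In both, NPI-1 was the highest library. Their models span only 390 and 345 bases, beside 1877 bases for Zm00001d052209. The sequences of these genes were not compared, and whether they share reads was not tested. In the opposite direction and also without overlap, Zm00001d034569, also described as cytokinin-O-glucosyltransferase 2, had a mean of 4.76 ± 1.57 FPKM in NPI and 7.31 ± 0.801 FPKM in DI (SD, n = 3 each), with an edgeR adjusted p of 0.324.

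In 2 places an oxidase gene and a glucosyltransferase gene were close neighbours. On chromosome 10, cytokinin oxidase11 (Zm00001d025885, 133022288 to 133031500) and the O-glucosyltransferase gene Zm00001d025886 (133084610 to 133086324) had no annotated gene between them. On chromosome 2, Zm00001d002984 (28885268 to 28886767) and cytokinin oxidase12 (Zm00001d002989, 28930734 to 28935603) were separated by 2 genes. All of these but Zm00001d025886 averaged under 1 FPKM, and no other members lay within 100 kb of each other in the table.

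**Figure D2:**
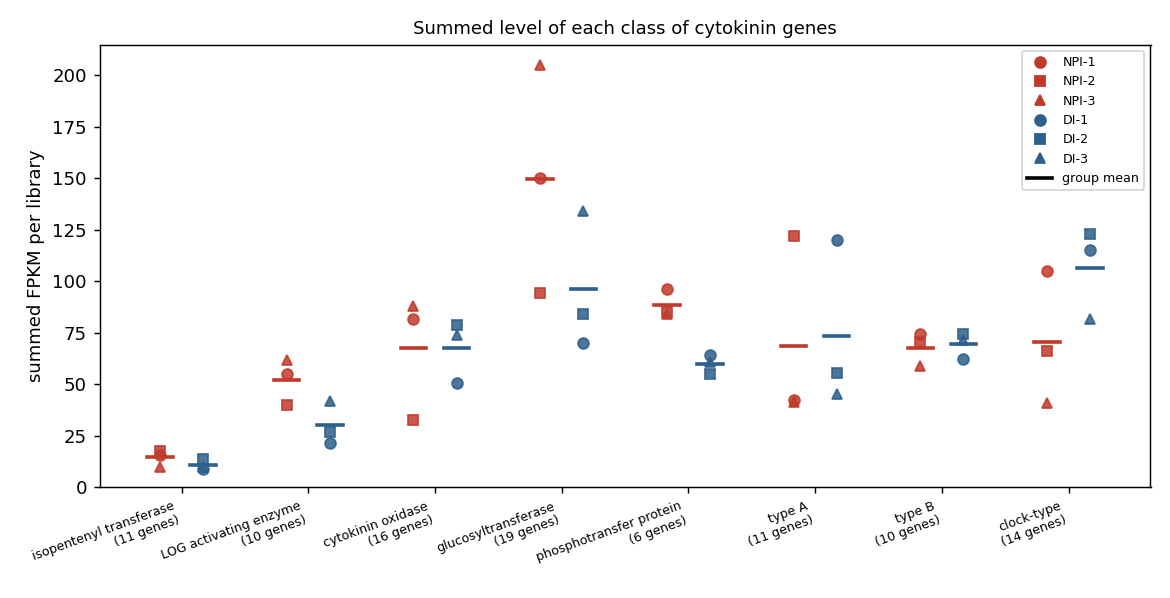
Summed FPKM of all genes of each class in each library, on a linear axis from 0, with NPI in red, DI in blue, a marker shape for each replicate number and a horizontal bar at the group mean. Phosphotransfer proteins reach 84.1 to 96.0 FPKM in NPI and 54.9 to 63.9 FPKM in DI, whereas the sums of type A regulators overlap and are high in NPI-2 and DI-1.

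Phosphotransfer proteins, which carry phosphate from the receptors to the nucleus, had higher values in NPI. The 6 genes summed to 96.0, 84.8 and 84.1 FPKM in NPI-1, NPI-2 and NPI-3 and 63.9, 54.9 and 60.6 FPKM in DI-1, DI-2 and DI-3. The spread within each group was small beside the gap between them, and the exact two-sided permutation p was 0.1, the smallest possible.

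Histidine-containing phosphotransfer protein2 (Zm00001d005344, chromosome 2, 170204369 to 170207404) held 82.0% of the sum. It had 78.8, 67.7 and 69.9 FPKM in NPI and 54.5, 44.5 and 48.9 FPKM in DI, with no overlap (log2 difference 0.62, SE 0.231, edgeR adjusted p = 0.201). Phosphotransfer protein1 (Zm00001d031961) had 13.5, 11.0 and 10.9 FPKM in NPI and 7.69, 6.96 and 9.54 FPKM in DI, again apart (log2 difference 0.61, SE 0.294, edgeR adjusted p = 0.283). Phosphotransfer protein3 (Zm00001d049952) had 3.02, 5.23 and 2.62 FPKM in NPI and 1.28, 2.91 and 2.12 FPKM in DI. Its groups overlapped, and the log2 difference was 0.82 (SE 0.474, edgeR adjusted p = 0.363). The 3 tested genes had short transcripts, and across the table the median log2 difference was 0.47 in the decile of shortest transcripts and -0.24 in that of the longest. With this trend removed, the differences of proteins 2, 1 and 3 were 0.32, 0.33 and 0.52. The same removal took isopentenyl transferase5 from 2.68 to 2.39. It took the short glucosyltransferase genes Zm00001d006043 and Zm00001d032297 from 2.12 to 1.67 and from 1.27 to 0.73.

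The response regulators lay on both sides. Of 36 genes, 23 were tested, 9 positive and 14 negative, with a median log2 difference of -0.17. Type B genes gave 4 positive and 4 negative differences, type A 3 and 3, and the clock type 2 and 6. The last of the 23 is a gene named cytokinin response regulator5 (Zm00001d042066), whose model spans 27503 bases, is described as a glycoside hydrolase and carries the orthology terms of both a galactosidase and a type A regulator. Its counts (log2 difference -0.67, edgeR adjusted p = 0.298) may therefore belong to either.

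ARR-B-transcription factor 8 (Zm00001d018380, chromosome 5, 219584158 to 219587472), described as similar to Arabidopsis ARR12, a type B activator of cytokinin response in roots, had the smallest p of all members. It had 10.4, 9.97 and 7.25 FPKM in NPI-1, NPI-2 and NPI-3 and 5.33, 3.33 and 3.74 FPKM in DI-1, DI-2 and DI-3. The groups lay apart, and here NPI-2 was close to NPI-1. The log2 difference was 1.20 (SE 0.306, edgeR adjusted p = 0.116). Leaving out NPI-2 gave 1.22 (edgeR adjusted p = 0.0558). DESeq2 gave an adjusted p of 0.00818.

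The most abundant type B gene, G2-like-transcription factor 24 (Zm00001d015521), is also described as ARR12. It had 25.1, 32.6 and 17.5 FPKM in NPI and 26.7, 29.4 and 30.9 FPKM in DI. The NPI values lay on both sides of the DI values, and the log2 difference was -0.17 (SE 0.239, edgeR adjusted p = 0.715). Of the other 6 tested type B genes, 3 had log2 differences of 0.50 to 0.56 and 3 of -0.55 to -0.42. The groups lay apart in ARR-B-transcription factor 6 (Zm00001d042463), at 6.11 to 8.61 FPKM in NPI and 4.45 to 5.83 FPKM in DI, and in ARR-B-transcription factor 4 (Zm00001d046755), at 0.61 to 1.14 and 1.15 to 1.64 FPKM, the first higher and the second lower in NPI. With an NPI mean of 0.913 FPKM, ARR-B-transcription factor 4 passed the filter through its DI level. Summed over the 10 type B genes, the levels were 67.7 ± 8.02 FPKM in NPI and 69.3 ± 6.25 FPKM in DI (SD, n = 3 each, exact permutation p = 0.6).

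Type A regulators varied widely within both groups. Their 11 genes summed to 42.2, 122 and 41.2 FPKM in NPI-1, NPI-2 and NPI-3 and 120, 55.2 and 45.3 FPKM in DI-1, DI-2 and DI-3. NPI-2 and DI-1 were more than 2 times the other 4 libraries, 1 from each group, so the sums did not separate by irrigation (exact permutation p = 0.6, n = 3 each).

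Cytokinin response regulator7 (Zm00001d050768), described as similar to Arabidopsis ARR16, had 9.24, 61.0 and 12.5 FPKM in NPI and 54.3, 18.0 and 14.3 FPKM in DI. NPI-2 and DI-1 were again the high libraries. The log2 difference was -0.10 (SE 0.774, edgeR adjusted p = 0.954), and it was -1.26 without NPI-2 (edgeR adjusted p = 0.214). Cytokinin response regulator2 (Zm00001d026594), named after its values were seen, had the same high libraries, at 40.0 FPKM in NPI-2 and 25.4 FPKM in DI-1 beside 5.30 to 17.8 FPKM in the rest. Its log2 difference was -0.06, and -1.11 without NPI-2 (edgeR adjusted p = 0.134 in the latter). In cytokinin response regulator1 (Zm00001d001865), also named afterwards, DI-1 was high at 17.9 FPKM but NPI-2 was not, at 5.55 FPKM.

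A further type A gene, Zm00001d019555, described as ARR3, did lie apart. It had 3.98, 2.79 and 2.99 FPKM in NPI and 2.36, 1.33 and 1.05 FPKM in DI. The log2 difference was 1.11 (SE 0.473, edgeR adjusted p = 0.242). The values of type A genes therefore differed in direction among themselves, from a log2 difference of -1.04 in cytokinin response regulator1 to 1.11 in Zm00001d019555.

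**Figure D3:**
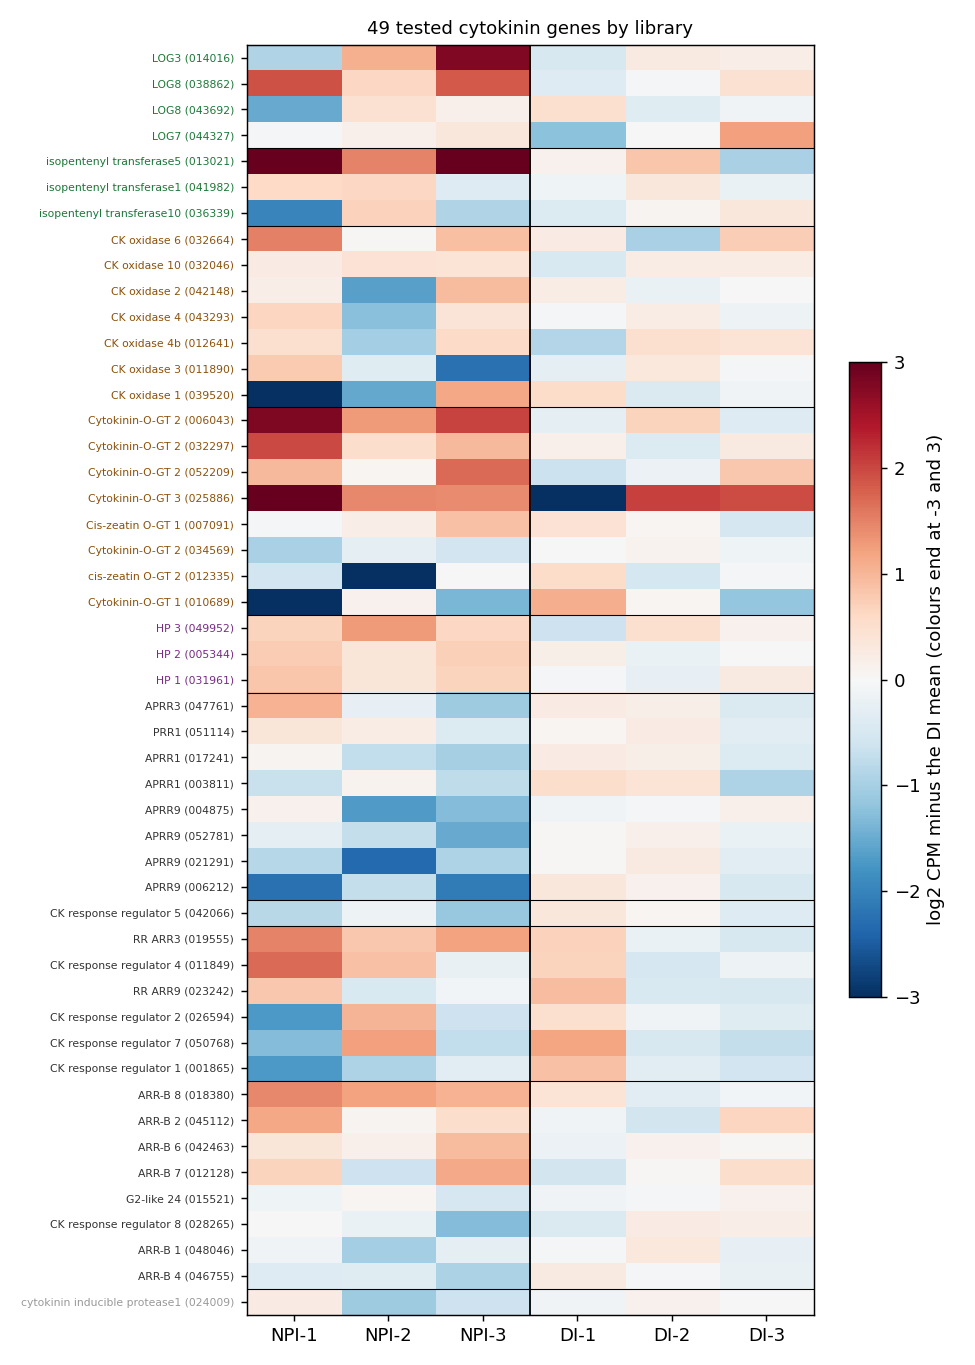
Log2 CPM of each of the 49 tested members in each library minus that gene's DI mean, with colours ending at -3 and 3 and lines between classes, and label colours for the role as in the plot of 20 members. In NPI-2, cytokinin oxidases 2, 4 and 4b are blue while cytokinin response regulators 2 and 7 are red, and most clock-type genes are blue in NPI-2 and NPI-3.

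The rule also took in 14 regulators of the clock type (pseudo-response regulators, PRR and APRR), which lack the phosphate-accepting residue and belong to the circadian oscillator rather than to cytokinin signalling. Of 8 tested, 6 had negative differences, with a median log2 difference of -0.62 and library medians of -0.09, -0.71 and -1.03 in NPI-1, NPI-2 and NPI-3. The groups lay apart in 3 of the 8, each lower in NPI, beside 13.7% of all tested genes in that direction. Transcripts of this family cycle over the day in plants, and the hour at which each root was taken was not given.

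Zm00001d006212, described as APRR9, had 2.81, 9.15 and 2.81 FPKM in the NPI libraries and 17.4, 15.9 and 9.85 FPKM in the DI libraries. All NPI values were below all DI values, but NPI-2 came close to DI-3. The log2 difference was -1.54 (SE 0.473, edgeR adjusted p = 0.15), and it was -2.20 without NPI-2 (edgeR adjusted p = 0.027). DESeq2 gave an adjusted p of 0.0263. Zm00001d021291, with the same description, had 12.9, 5.22 and 11.2 FPKM in NPI and 24.8, 31.0 and 19.3 FPKM in DI, also with no overlap (log2 difference -1.25, SE 0.416, edgeR adjusted p = 0.169).

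The other APRR9 genes, Zm00001d052781 and Zm00001d004875, differed by -0.75 and -0.73 on the log2 scale, with edgeR adjusted p of 0.259 and 0.418. An APRR3 gene, Zm00001d047761, was the most abundant of the type, with 49.3, 22.7 and 10.3 FPKM in NPI and 29.6, 29.6 and 18.3 FPKM in DI. Its NPI values enclosed its DI values (log2 difference 0.14, SE 0.531, edgeR adjusted p = 0.904). A gene named cytokinin inducible protease1 (Zm00001d024009), which the table describes as the plastid chaperone ClpC1, had 21.7, 9.85 and 10.8 FPKM in NPI and 17.7, 21.8 and 18.8 FPKM in DI. Such chaperones are part of the plastid protein import and turnover machinery. The groups overlapped through NPI-1 (log2 difference -0.38, SE 0.355, edgeR adjusted p = 0.567).

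**Figure D4:**
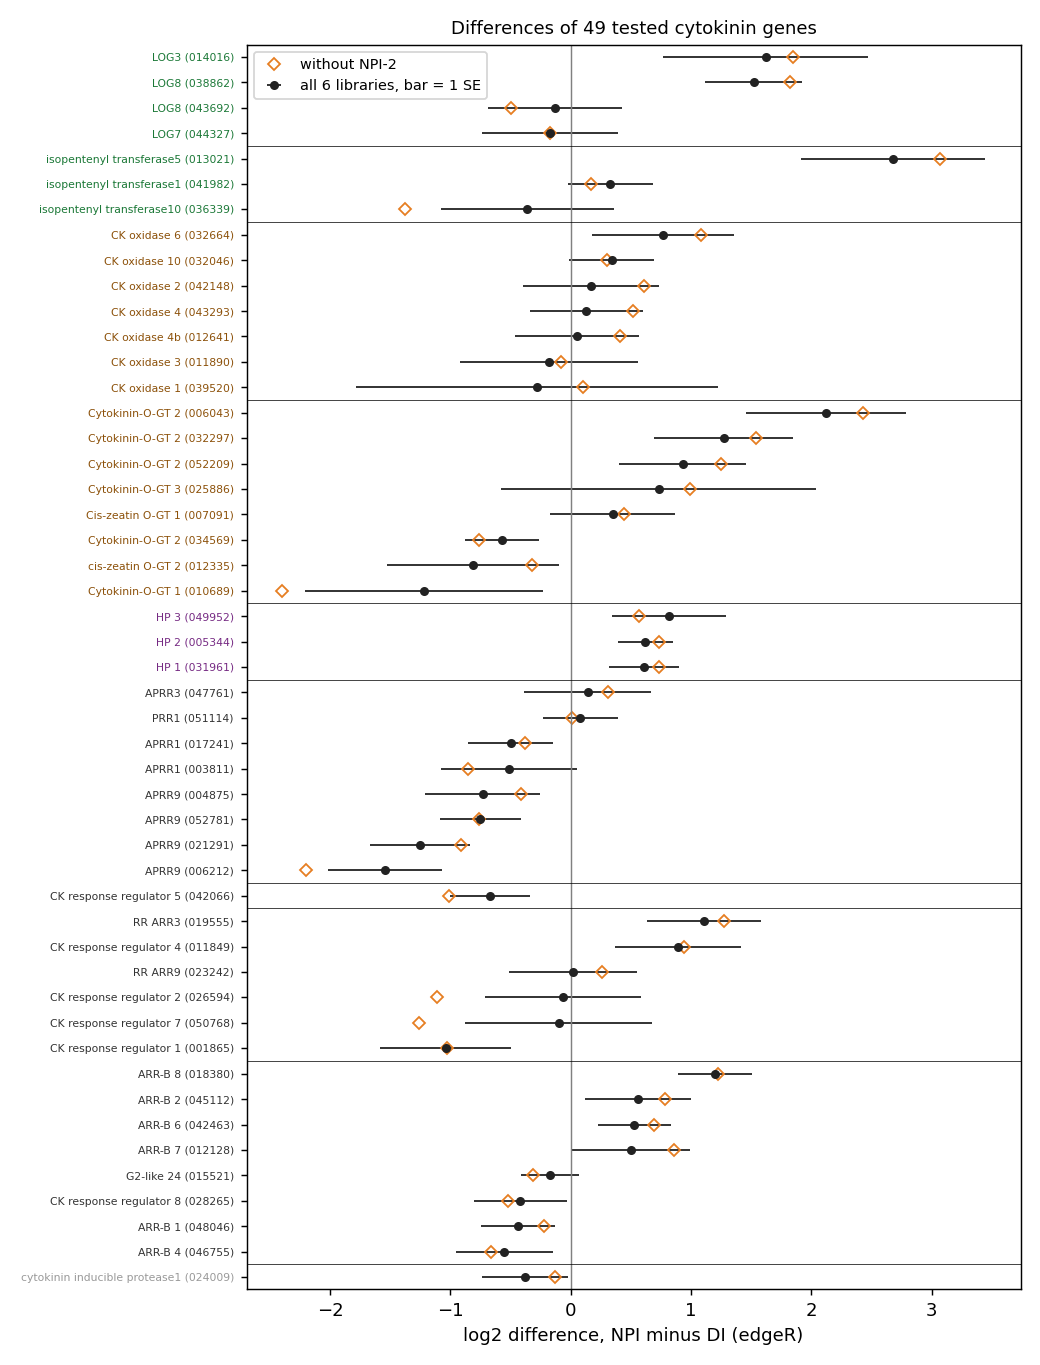
Log2 difference between NPI and DI of each tested member, grouped by class, with a black point and a bar of 1 SE for the fit of all 6 libraries and an open diamond for the fit without NPI-2, and label colours for the role as in the plot of 20 members. Isopentenyl transferase5, which passed the filter only through its NPI level, lies farthest to the right at 2.68. The APRR9 gene Zm00001d006212 lies farthest to the left at -1.54, and all 3 phosphotransfer proteins lie to the right of 0.

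Genes of the pathway outside the rule were taken by name from further lists. None passed in edgeR with all libraries, or in limma. DESeq2 called 2 of 7 tested transport genes, 1 of 8 of base and nucleotide interconversion and 3 of 12 of the KNOTTED and LIGULELESS list as higher, beside 6.84% of all tested genes. At an unadjusted p under 0.05 in edgeR, 3 of 7 transport genes and 4 of 12 in the KNOTTED and LIGULELESS list were higher and none lower, beside 12.3% of all tested genes that were higher. The transport list of 20 genes had a median log2 difference of 0.95 over those 7. Among them, Zm00001d024497 is described as member 14 of the ABC transporter G family (ABCG14), which in Arabidopsis exports cytokinin from roots towards the shoot. It had 31.1, 10.8 and 14.5 FPKM in NPI-1, NPI-2 and NPI-3 and 0.73, 2.20 and 3.17 FPKM in DI-1, DI-2 and DI-3. The lowest NPI library was well above the highest DI library, and the log2 difference was 3.29 (SE 0.658, edgeR adjusted p = 0.0849). Leaving out NPI-2 gave 3.61 (edgeR adjusted p = 0.0315). DESeq2 gave an adjusted p of 1.23e-05. A nucleoside carrier gene, Zm00001d021752, described as equilibrative nucleotide transporter 2, had 54.9, 60.6 and 54.7 FPKM in NPI and 28.0, 16.7 and 32.5 FPKM in DI (log2 difference 1.20, SE 0.308, edgeR adjusted p = 0.118). Another gene with this description, Zm00001d021753, had 0.04, 1.04 and 0.75 FPKM in NPI and 3.10, 0.43 and 2.65 FPKM in DI. Its groups overlapped, and its log2 difference of -1.72 was the lowest of the list (edgeR adjusted p = 0.414). That gene passed the filter through its DI level. The tested purine permeases, carriers of adenine and free cytokinin bases, included none that passed.

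The histidine kinase list, which holds the cytokinin receptors beside other sensor kinases, had 3 positive and 7 negative differences in 10 tested of 14 genes, with a median of -0.48. Those of smallest p were histidine kinase2 (Zm00001d042312), at 5.02 ± 1.89 FPKM in NPI and 3.46 ± 0.24 FPKM in DI, and on the lower side Zm00001d034510, an ATPase family gene, at 3.71 ± 1.37 and 6.69 ± 1.02 FPKM (SD, n = 3 each). Their edgeR adjusted p were 0.297 and 0.187. Zm00001d036704, described as histidine kinase 5, had 0.93, 5.55 and 2.02 FPKM in NPI and 9.37, 6.95 and 4.45 FPKM in DI, and its groups overlapped through NPI-2 (log2 difference -1.29, edgeR adjusted p = 0.27). Leaving out NPI-2 gave -2.06 (edgeR adjusted p = 0.0523). Without NPI-2, edgeR called 1 of the 10 tested genes of the list lower, beside 5.19% of all tested genes.

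Enzymes that interconvert bases and nucleotides gave 3 positive and 5 negative differences in 8 genes, with a median of -0.30. Adenine phosphoribosyltransferase1 (Zm00001d003108), of an enzyme type that also turns cytokinin bases into nucleotides, had 3.76 ± 2.42 FPKM in NPI and 1.12 ± 0.431 FPKM in DI (SD, n = 3 each). Its edgeR adjusted p was 0.156, and 0.0447 without NPI-2. Adenine phosphoribosyltransferase 2 (Zm00001d017204), at a higher level, was lower in NPI without overlap. It had 26.7 ± 5.94 FPKM in NPI and 47.6 ± 14.5 FPKM in DI (SD, n = 3 each). The log2 difference of that gene was -0.75 (edgeR adjusted p = 0.259). An adenosine kinase gene, Zm00001d051157, had 14.7, 25.3 and 40.0 FPKM in NPI and 73.0, 47.4 and 44.7 FPKM in DI, apart by a small gap between NPI-3 and DI-3 (log2 difference -0.95, edgeR adjusted p = 0.267). Another gene with the same description, Zm00001d003017, went the other way at a lower level. It had 4.27, 3.53 and 2.63 FPKM in NPI and 2.66, 0.95 and 1.68 FPKM in DI. Its groups overlapped (log2 difference 1.02, edgeR adjusted p = 0.245).

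The KNOTTED and LIGULELESS list mixes homeobox genes, a family that raises cytokinin synthesis in shoot meristems, with genes of other kinds. Its counts were not split by kind. Of its 12 tested genes 9 were positive, with a median of 0.50. The higher genes of smallest p were knotted1 induced1 and a receptor-like kinase gene, neither of them named as a homeobox gene. Knotted1 induced1 (Zm00001d022630) had 2.53 ± 0.499 FPKM in NPI and 0.233 ± 0.151 FPKM in DI, and the kinase gene, liguleless narrow1 (Zm00001d045945), had 77.5 ± 45.3 and 13.5 ± 7.22 FPKM (SD, n = 3 each). Their edgeR adjusted p were 0.0913 and 0.0969. Knotted1 induced1 passed the filter through its NPI level. The lower genes of smallest p were knotted related homeobox2 (Zm00001d046568) and knotted related homeobox7 (Zm00001d053749), with log2 differences of -0.23 and -0.03. The groups overlapped in both, with edgeR adjusted p of 0.589 and 0.957. Without NPI-2, 4 genes of the list were called higher (edgeR), beside 6.65% of all tested genes in that direction.

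D-type cyclins link cytokinin to the entry into the cell cycle in Arabidopsis. The pattern for them also took cyclin-dependent kinases and their inhibitors, and of its 25 tested genes 18 were positive, with a median of 0.49. The 8 D cyclins alone, split off after the values were seen, had a median of 0.58, which was 0.09 without NPI-2. A D-type cyclin gene, Zm00001d005928, had 5.47, 16.6 and 7.29 FPKM in NPI and 4.69, 4.32 and 4.95 FPKM in DI, with NPI-2 the highest (log2 difference 1.09, SE 0.397, edgeR adjusted p = 0.195). Cyclin-dependent kinase inhibitor1 (Zm00001d032732) was likewise higher without overlap, at 11.5 ± 2.51 FPKM in NPI and 5.05 ± 2.79 FPKM in DI (SD, log2 difference 1.26, edgeR adjusted p = 0.194). The lower genes of smallest p were also inhibitors, Zm00001d029820 and Zm00001d027585, with log2 differences of -0.52 and -0.34. Their groups overlapped (edgeR adjusted p = 0.623 and 0.55). At an unadjusted p under 0.05 in edgeR, 3 of the 25 were higher, beside 12.3% of all tested genes, and none was lower. DESeq2 called none of them. The only gene of the activation list, a lysine decarboxylase family gene (Zm00001d033111) whose family includes the LOG enzymes, had 5.99, 5.48 and 2.59 FPKM in NPI and 2.07, 3.14 and 1.96 FPKM in DI (log2 difference 1.01, edgeR adjusted p = 0.199). The list of plastid side-chain supply held 3 genes, none of them tested, and no gene matched the tRNA route or the separate clock list by name.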

How the data were processed

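Poly(A) RNA of 6 maize root tip libraries was measured, per the labels, whose library protocol also speaks of adipose samples and may have been written for other work. Per the submitters' processing notes, FastQC 0.10.1, HISAT2 2.0, StringTie 1.3.4 and edgeR were used. No source used here names the genome build. The authors deposited estimated counts per gene, as whole numbers, and FPKM per gene, scaled for transcript length and library size. Coordinates are those of the deposited table. Strand use was not stated, so overlapping genes and close copies may share counts.

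Testing covered the 21902 genes averaging at least 1 FPKM over the libraries and used edgeR 4.0.16 in R 4.3.3 (quasi-likelihood, TMM, two-sided, Benjamini-Hochberg over all tested genes, threshold 0.05). The contrast is NPI minus DI. The SE is the size of the log2 difference over the root of F. Groups were taken as not overlapping from FPKM. Summed levels were compared by exact permutation. The test was also run on simulated counts, with few genes changed and no library made to stand apart. That run does not measure its power or error rate in these data. Alternatives used DESeq2 1.42.0, limma 3.58.1, RLE factors, other filters, a replicate block, each library left out and, added after seeing the data, removal of the length trend. Figures used matplotlib 3.10.9.

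The members, lists and tests were chosen with earlier results of these data known. Values per library are given for members with an unadjusted p under 0.05, the 3 highest levels of each role, and members whose groups lay apart with a log2 difference of at least 1. For each further list, the 2 higher and 2 lower genes of smallest p could be named. The root patterning pattern also matched a sucrose synthase gene, which is left out of the level given for that list.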

Additional observations from a re-analysis of the deposited data

How the results depend on the processing

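The count of members called was 0 higher and 0 lower in edgeR. It became 3 higher and 1 lower in DESeq2, and ranged from 0 to 2 higher and 0 to 1 lower when 1 library was left out, the calls coming without NPI-2. The genes called in DESeq2 were Zm00001d038862, Zm00001d013021 and Zm00001d018380 as higher and Zm00001d006212 as lower, and without NPI-2 the same genes but Zm00001d018380. The median log2 difference of members was -0.10 and -0.13 in limma on log2(FPKM + 1) and log2(FPKM + 0.1), where the median of all genes was -0.04 and -0.06, and -0.07 for genes of at least 5 FPKM. It ranged from -0.04 to 0.17 with 1 library left out, and was -0.06 with the length trend removed. RLE factors and no filter left the calls at 0.

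Of 255 values of the 20 described members under alternatives, 22 changed sign, all in 5 members with differences near 0. For cytokinin oxidase4b (Zm00001d012641) these were -0.05 in both limma fits and -0.03 at 5 FPKM, and among left-out libraries values ran from -0.29 to 0.41. Cytokinin oxidase 2 (Zm00001d042148) had -0.19 and -0.22 in limma, and -0.46 to 0.61 with a library left out. Zm00001d044327 had 0.04 and 0.08 in limma, and -0.59 to 0.65 with a library left out. Zm00001d047761 had -0.14 and -0.15 in limma, and -0.63 to 0.51 with a library left out. Cytokinin response regulator7 (Zm00001d050768) had -1.26 without NPI-2 and 0.75 without DI-1. The cause was not tested.

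Correlations of deviations gave no clear sign that the replicate numbers pair the libraries, but they cannot settle the design. The labels of DI-2 also conflict in its replicate number, and the number in its title was used here and in the replicate block. Same-numbered NPI and DI libraries had -0.279, 0.2 and 0.199, and differently numbered ones had -0.397 to 0.301. With the replicate block, 0 members were called and the median was -0.04, and the differences of Zm00001d042148, Zm00001d044327 and Zm00001d047761 were -0.15, 0.15 and -0.10.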
